A study of Sus scrofa with 3 samples.

Results

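The renin-angiotensin system was followed through 8 genes in the kidney of male pigs: AGT, ACE, AGTR1, AGTR2, MME, ENPEP, ATP6AP2 and MAS1. They were taken by symbol, with earlier results of these data known. All 8 were found among the 34570 genes of the count table, and 5 of them, ACE, AGTR1, MME, ENPEP and ATP6AP2, were abundant enough to be compared among 15472 genes. The animals were Chinese Wuzhishan pigs, a miniature breed, aged 6 to 7 months and fed a diet high in fat and cholesterol in every group. Castrated males given testosterone replacement (CMT), castrated males (CM) and intact males (IM) were studied, 3 pigs in each. Equal amounts of kidney RNA from a group's 3 pigs were combined before library preparation, so each group is 1 library and the 9 pigs give 3 values per gene. The study asked how the renal transcriptome differs in testosterone-deficient pigs on this diet. The testosterone dose, the time since castration and blood pressure are not given in the sources used here.

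Angiotensinogen, the product of AGT, is cut by renin to angiotensin I, which angiotensin-converting enzyme, the product of ACE, trims to angiotensin II. Angiotensin II constricts vessels and retains sodium through the AT1 receptor, while the AT2 receptor and the MAS receptor for angiotensin 1-7 are known for opposing actions. In the kidney, peptidases that form and destroy angiotensins line the proximal tubule brush border.

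Library totals were 13601475 counts in CMT, 18503537 in CM and 16459771 in IM. A level is given here as a count and as scaled CPM, the count relative to a library size corrected with TMM factors. A ratio of scaled levels carries an exact 95% interval that covers counting error only, because pooling leaves no spread between pigs. A gene counted as called when this interval lay wholly beyond 2-fold and its mean level was at least 1 scaled CPM. No p-value can be given, and no difference below has a replicate check. Counts were not divided by transcript length, so each gene is compared with itself across libraries and not with other genes.

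None of the 5 compared members was called in any comparison. Between CM and IM 0 of 5 were called, where 2.71% of all compared genes were. Between CMT and CM 0 of 5 were called beside 2.95% of all genes, and between CMT and IM 0 of 5 beside 1.5%. With 5 genes and backgrounds this low, a count of 0 says nothing particular about the system. At a threshold of 1.5-fold the counts were 1, 0 and 0 of 5, beside 6.22%, 6.3% and 3.74% of all genes. Where the interval had only to exclude equal levels they were 4, 4 and 4 of 5, beside 44.4%, 41.7% and 35.3%, so that rule, which depth alone can satisfy, makes no call below. ACE lay farthest from equal levels, at 1.73 times the IM level in CM, and the other 4 stayed within 0.791 to 1.24 times in the 3 comparisons. The median log2 fold of the 5 was -0.15 for CM against IM, 0.063 for CMT against CM and -0.094 for CMT against IM, beside medians over all compared genes of -0.0064, -0.0043 and -0.013.

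**Figure D1:**
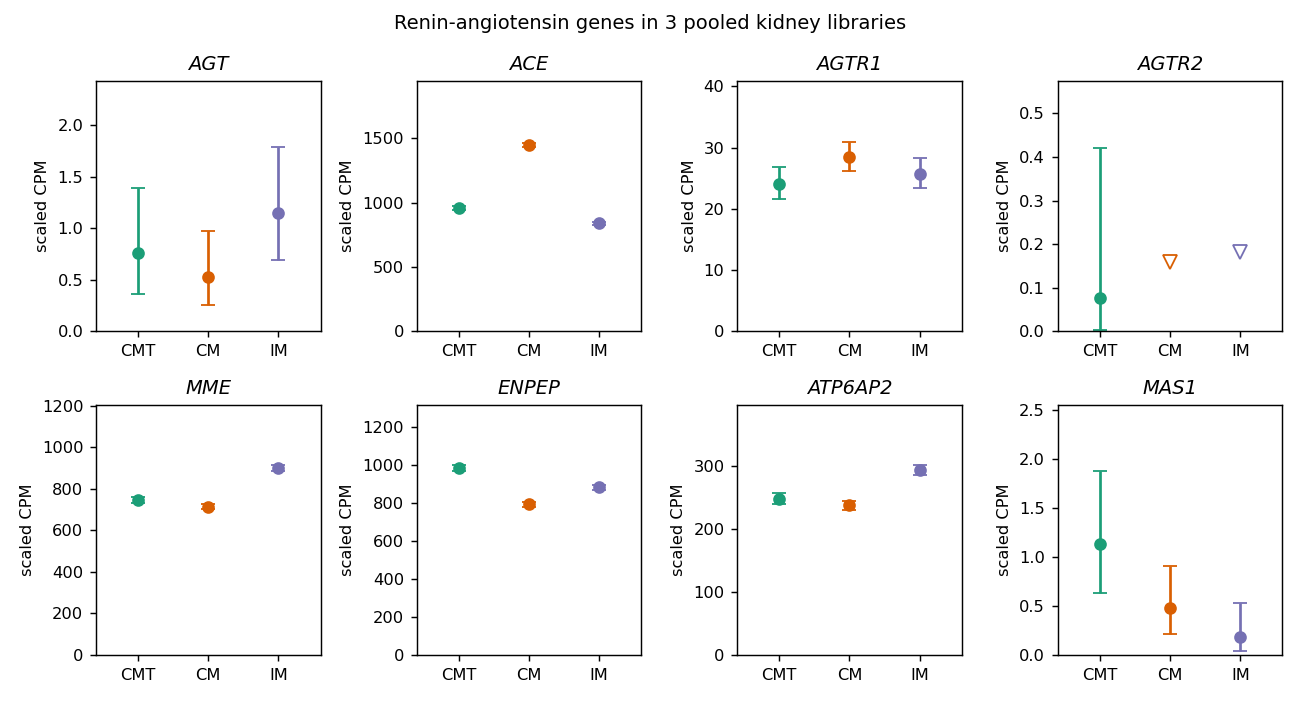
Scaled CPM (vertical axis, from 0, a separate scale for each gene) of the 8 genes in the CMT, CM and IM libraries. Points are single pooled libraries, bars are exact 95% Poisson intervals, and open triangles mark the level that 3 counts would give where the count was 0. ACE stands at 1448 scaled CPM in CM against 838 in IM, while AGT, AGTR2 and MAS1 have wide bars with means below the 1 scaled CPM needed for comparison.

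The substrate was close to the limit of detection. AGT gave 10 counts in CMT, 10 in CM and 19 in IM, which is 0.756, 0.529 and 1.15 scaled CPM. Their intervals overlap in all pairs, and the mean fell short of the 1 CPM needed for comparison. The ratio was 0.461 (0.191 to 1.04) in CM against IM and 1.43 (0.534 to 3.82) in CMT against CM, so that both intervals include equal levels and a wide span on either side. AGT is best known as a liver gene, and 19 of 20 liver markers were in the table. Their summed level was 1006 scaled CPM in CMT, 645 in CM and 1097 in IM, with FGA at 0 in CM and CPS1 at 0 in every library. The largest part of that sum was TF, at 547, 285 and 626 scaled CPM in CMT, CM and IM. The part of liver markers in the AGT values was not tested. Among them ALB, serum albumin, gave 404, 24 and 1952 counts in CMT, CM and IM. Other liver markers, HPX, TTR and APOA1 among them, were higher in CM than in IM. TTR, transthyretin, gave 775, 489 and 133 counts in CMT, CM and IM and APOA1 gave 323, 739 and 262.

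ACE, which converts angiotensin I to angiotensin II and also breaks down bradykinin, carried the widest difference among the members. It gave 12697 counts in CMT, 27367 in CM and 13881 in IM, corresponding to 959, 1448 and 838 scaled CPM. The CM library was high and the others lay near each other, with no overlap of the counting intervals between any pair. The ratio was 1.73 (1.69 to 1.76) in CM against IM, a log2 fold of 0.79, and 5.10% of compared genes had a ratio as high. In CMT against CM the ratio was 0.663 (0.649 to 0.677), and 8.78% of genes were as low. In CMT against IM it was 1.14 (1.12 to 1.17). When the threshold is lowered to 1.5-fold, ACE is called higher in CM than in IM, as are 2.81% of compared genes, and is not called in the other comparisons. The upper bound of 1.76 keeps the CM to IM ratio below 2 as far as counting error goes, so depth is not what limits that call.

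The ACE difference was also present when counts of the same library were divided by each other, a measure that needs no scaling. ANPEP, aminopeptidase N, a brush border peptidase that acts on angiotensin III, gave 20558 counts in CMT, 32573 in CM and 25010 in IM. Its own ratio was 1.14 (1.12 to 1.16) in CM against IM and 0.901 (0.886 to 0.917) in CMT against CM. The ACE count was 0.618 times the ANPEP count in CMT, 0.840 times in CM and 0.555 times in IM. This quotient, whose size also depends on transcript lengths, was 1.51 times as large in CM as in IM (1.47 to 1.55) and 0.735 times as large in CMT as in CM (0.715 to 0.755), with intervals from a normal approximation on the log scale. It was 1.11 times as large in CMT as in IM (1.08 to 1.15).

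Summed proximal tubule and endothelial markers differed less than ACE in each of the 3 comparisons. Single markers ran in both directions within these sums. In CMT against IM the interval excluded equal levels for 6 proximal tubule markers upward and 8 downward. For endothelial markers these were 2 and 4. MIOX, at 3902 scaled CPM in CMT and 2845 in IM, and SLC13A1, at 178 and 270, differed more than ACE there, at 959 and 838. Proximal tubule markers, 17 of 18 in the table and all 17 detected in each library, summed to 22127 scaled CPM in CMT, 22878 in CM and 21441 in IM. Relative to that sum, the ACE count was 1.62 times as large in CM as in IM (1.58 to 1.65) and 0.685 times as large in CMT as in CM (0.670 to 0.700). Endothelial cells also carry ACE, and their markers, 9 of 11 in the table, summed to 604, 589 and 629 scaled CPM in CMT, CM and IM, with TIE1 at 0 in CMT and CM. Relative to these, ACE was 1.85 times as large in CM as in IM (1.79 to 1.91). Relative to summed podocyte markers, ACE was 1.60 times as large in CM as in IM (1.54 to 1.66). In CMT against IM that quotient was 0.970 (0.931 to 1.01), so there the podocyte sum did not differ less than ACE. Leukocyte markers summed to 54.8 scaled CPM in CMT, 61.7 in CM and 42.4 in IM. Among them CSF1R, the receptor of macrophage growth factor, was at 1.95 times the IM level in CM (1.66 to 2.31). It stood at 1.03 times the CM level in CMT (0.890 to 1.18). PTPRC, a marker of all leukocytes, was highest in CM, at 13.1, 17.9 and 13.6 scaled CPM in CMT, CM and IM. ITGAM, at 7.56, 8.52 and 6.95, and CD79A of B cells, at 0.604, 2.86 and 1.09, were also highest in CM. CD3E of T cells was lowest in CM, at 5.52, 4.76 and 5.38, and LYZ and MS4A1 were not highest in CM either. For ITGAM, CD3E, LYZ and MS4A1 the intervals of the 3 libraries overlap, so their order is nominal. Macrophages can carry ACE, and the part of leukocytes in the ACE result was not tested. In RNA of whole tissue, fewer cells of a type and less RNA per cell cannot be told apart.

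**Figure D2:**
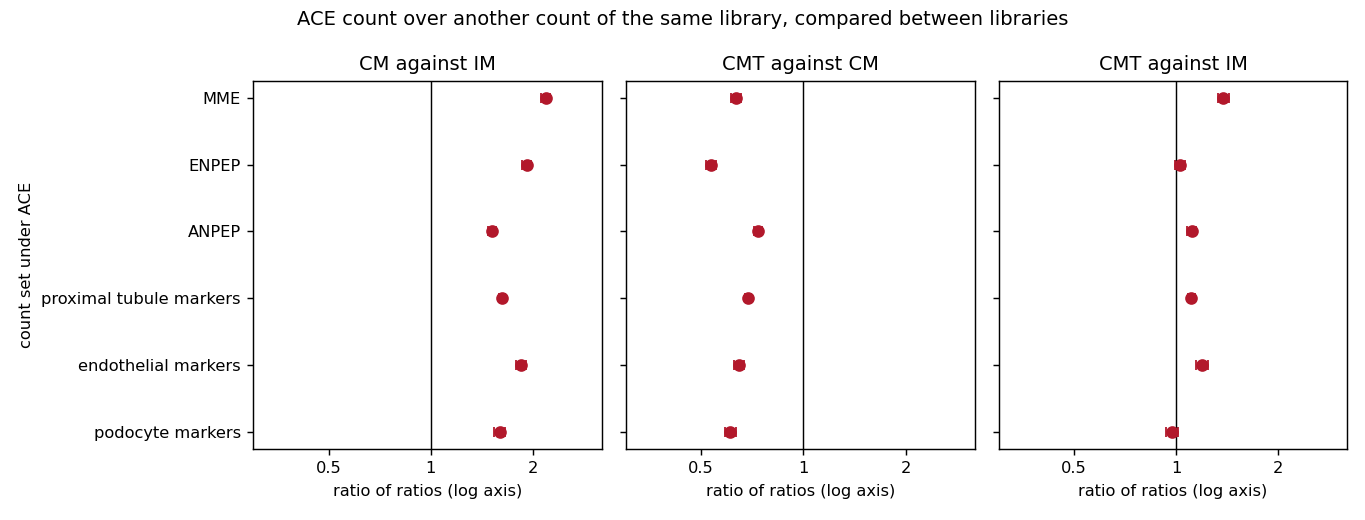
ACE count divided by another count of the same library, compared between libraries, in a panel for each comparison (horizontal log axis, bars are 95% counting intervals). In CM against IM all points lie at 1.51 or above with bars clear of 1, and in CMT against CM all lie below 1. In CMT against IM the bars over ENPEP and over podocyte markers include 1.

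MME and ENPEP, the other peptidases among the members, did not share the ACE pattern. MME, neprilysin, which cuts angiotensin I to angiotensin 1-7 and degrades natriuretic peptides, gave 9890 counts in CMT, 13463 in CM and 14912 in IM, or 747, 712 and 901 scaled CPM. IM was highest, and no pair of intervals overlapped. The ratio was 0.791 (0.773 to 0.809) in CM against IM and 0.830 (0.809 to 0.851) in CMT against IM. In CMT against CM it was 1.05 (1.02 to 1.08), a sign that turns when total counts replace TMM scaling, with a log2 fold of -0.00092. Set against the summed proximal tubule markers, MME was 0.741 times as large in CM as in IM (0.724 to 0.759).

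ENPEP, aminopeptidase A, which turns angiotensin II into angiotensin III, was lowest in CM, unlike ACE. It gave 13016 counts in CMT, 14969 in CM and 14578 in IM, or 983, 792 and 880.5 scaled CPM, again with no overlap between intervals. The ratio was 1.24 (1.21 to 1.27) in CMT against CM, 0.899 (0.879 to 0.920) in CM against IM and 1.12 (1.09 to 1.14) in CMT against IM. The ACE count relative to ENPEP was 1.92 times as large in CM as in IM (1.86 to 1.98), 0.534 times as large in CMT as in CM (0.517 to 0.551) and 1.02 times as large in CMT as in IM (0.990 to 1.06). Relative to MME, ACE was 2.18 times as large in CM as in IM (2.12 to 2.25). These are the members with the greatest depth, so the contrast between ACE and both other peptidases exceeds counting error, while the spread between pigs is unknown.

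Of the receptors, AGTR1 alone was measured well. AGTR1, the AT1 receptor of vessels, mesangium and tubules, gave 319 counts in CMT, 538 in CM and 426 in IM, or 24.1, 28.5 and 25.7 scaled CPM. CM was nominally highest, but the intervals of the 3 libraries overlap. The ratio was 1.11 (0.972 to 1.26) in CM against IM, 0.847 (0.735 to 0.974) in CMT against CM and 0.937 (0.808 to 1.09) in CMT against IM. These bounds reach as far as 0.735 and 1.26 and exclude a 2-fold difference as far as counting error goes. Mesangial, pericyte and smooth muscle markers, all 9 detected in each library, summed to 566 scaled CPM in CMT, 593 in CM and 664 in IM. Relative to that sum AGTR1 was 1.24 times as large in CM as in IM (1.09 to 1.41). That quotient depends on which markers weigh most in the sum. ACTA2, its largest part, stood at 251 scaled CPM in CM and 281 in IM. Only 3 of the 9 had a log2 fold above 0 in CM against IM. PDGFRB, at 77.8 in CM and 57.3 in IM, and ITGA8, at 41.5 and 34.6, were among those 3.

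AGTR2, the AT2 receptor, gave 1 count in CMT and 0 in both CM and IM. The upper interval bound for a count of 0 was 0.195 scaled CPM in CM and 0.223 in IM. AGTR2 was under the floor of 3 counts in every library, so no fold is given. MAS1, the receptor of angiotensin 1-7, gave 15 counts in CMT, 9 in CM and 3 in IM, or 1.13, 0.476 and 0.181 scaled CPM. The intervals of CMT and IM do not overlap, while CM overlaps both. The CMT to IM ratio was 6.25 (1.77 to 33.7), on 3 counts in IM and below the level needed for comparison. MAS1 stays uncalled without that filter too, because the lower bound lies under 2.

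ATP6AP2, the prorenin receptor, is also an accessory subunit of the vacuolar proton pump. It gave 3277 counts in CMT, 4481 in CM and 4853 in IM, or 248, 237 and 293 scaled CPM. IM was highest, and the intervals of CMT and CM overlapped. The ratio was 0.809 (0.776 to 0.842) in CM against IM and 0.845 (0.808 to 0.883) in CMT against IM. In CMT against CM it was 1.04 (0.998 to 1.09), and its sign turns under total counts, with a log2 fold of -0.0074.

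Other subunits of the pump gave a setting for ATP6AP2. Of 20 listed, 18 were in the table and compared, and 0 were called in any comparison. Of all compared genes, 2.71% were called between CM and IM, 2.95% between CMT and CM, and 1.5% between CMT and IM. A count of 0 of 18 is therefore near the background. At 1.5-fold, 2 subunits were higher and 1 lower between CM and IM, beside 6.22% of all genes. Between CMT and CM 1 was higher and 2 lower, beside 6.3%, and between CMT and IM 0 were called, beside 3.74%. The median log2 fold of the 18 subunits was -0.11 for CM against IM, 0.088 for CMT against CM and -0.038 for CMT against IM. Relative to their summed count, ATP6AP2 was 0.814 times as large in CM as in IM (0.780 to 0.849). Individual subunits spread more widely, and those named here were picked after their values were seen. ATP6V0A1, a membrane subunit, gave 758 counts in CMT, 2246 in CM and 955 in IM, a ratio of 2.06 (1.91 to 2.22) in CM against IM. ATP6V1B1, the subunit known from intercalated cells, gave 5470, 13743 and 7166 counts in the same order of libraries, a ratio of 1.68 (1.63 to 1.73) in CM against IM. ATP6V0E1 ran the other way, at 0.553 (0.528 to 0.579).

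**Figure D3:**
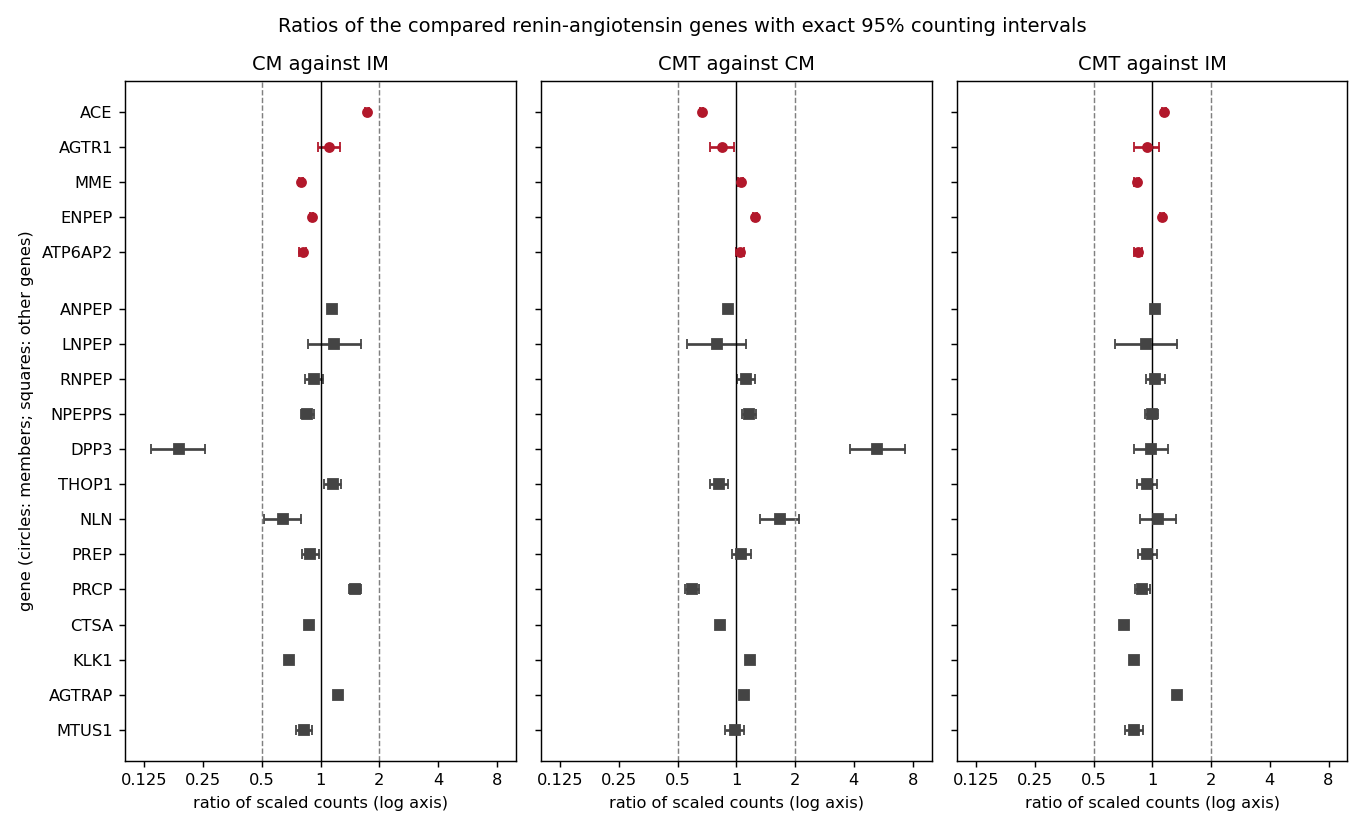
Ratio of scaled counts (horizontal log axis) of the 5 compared members (circles) and 13 other renin-angiotensin genes (squares), with a panel for each comparison, exact 95% counting intervals and dashed lines at 0.5 and 2. DPP3 is the only gene whose interval lies wholly beyond a dashed line, at 0.187 in CM against IM and 5.25 in CMT against CM.

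Among 17 further genes of the system, 15 were in the table and 13 were compared. Between CM and IM 1 was lower, beside 1.52% of all genes, and 0 were higher. Between CMT and CM 1 was higher, beside 1.84% of all genes, and 0 were lower. Between CMT and IM 0 were called. The gene was DPP3 both times. DPP3, dipeptidyl peptidase 3, a cytosolic and circulating enzyme that degrades angiotensin II and enkephalins, gave 180 counts in CMT, 49 in CM and 229 in IM, or 13.6, 2.59 and 13.8 scaled CPM. CM was low and stood clear of both others, which overlapped. Its level was 5.34-fold lower in CM against IM (3.90 to 7.42), 5.25-fold higher in CMT against CM (3.81 to 7.35), and level in CMT against IM at 0.983 (0.804 to 1.20). A ratio as low in CM against IM was found for 0.569% of compared genes. The list's median log2 fold was -0.17 for CM against IM, 0.083 for CMT against CM and -0.087 for CMT against IM.

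The remaining 12 were not called, and the ones named here were chosen after their values were seen. PRCP, a lysosomal carboxypeptidase that removes the last residue of angiotensins II and III, was also highest in CM, with 858 counts in CMT, 2069 in CM and 1211 in IM, or 64.8, 109 and 73.1 scaled CPM. Its ratio was 1.496 (1.39 to 1.61) in CM against IM and 0.592 (0.546 to 0.642) in CMT against CM. In CMT against IM it was 0.886 (0.811 to 0.968), whereas ACE was higher in CMT than in IM. THOP1, thimet oligopeptidase, which can form angiotensin 1-7, stood at 1.16 (1.05 to 1.28) in CM against IM and 0.813 (0.728 to 0.908) in CMT against CM. NLN, neurolysin, which can form angiotensin 1-7, had 167, 143 and 196 counts in the same order of libraries, with ratios of 0.639 (0.511 to 0.797) in CM against IM and 1.67 (1.33 to 2.10) in CMT against CM. KLK1, tissue kallikrein, which releases kinins, stood at 0.691 (0.674 to 0.708) in CM against IM. AGTRAP, a protein that binds the AT1 receptor, stood at 1.33 (1.27 to 1.40) in CMT against IM. CTSG and CPA3, proteases of myeloid and mast cells, had 0 counts in each library.

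**Figure D4:**
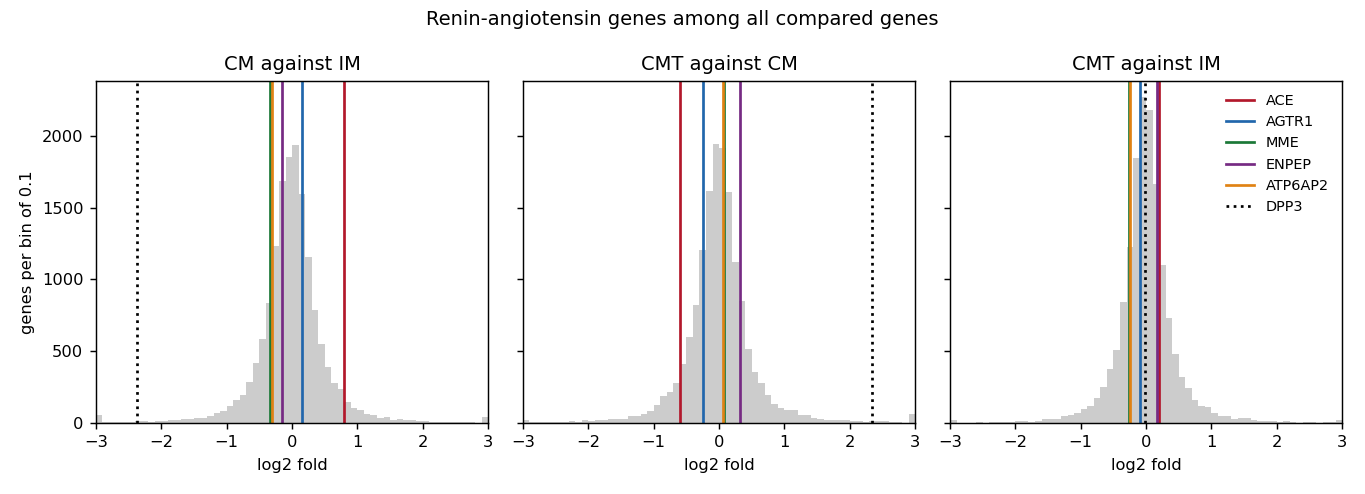
Log2 fold of the 5 members (solid lines) and of DPP3 (dotted line) on the distribution of all 15472 compared genes (grey bars, number of genes per bin of 0.1, with genes beyond 3 in the end bins). ACE lies at 0.79 in CM against IM, near the upper edge of the main body of genes, while AGTR1, MME, ENPEP and ATP6AP2 lie within it in the 3 panels.

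Of 15 compared regulators of renin release, 16 of receptor signalling, 18 of the aldosterone pathway and 11 of kinins and other vasoactive peptides, 0 were called higher and 0 lower in any of the 3 comparisons. Beside this, 2.71% of all compared genes were called between CM and IM, 2.95% between CMT and CM, and 1.5% between CMT and IM, so a count of 0 in lists of this size is near the background. The kinin list had the median log2 fold farthest from 0, at 0.19 in CM against IM. The renin release, signalling and aldosterone lists lay between -0.024 and 0.060 over the comparisons. The genes named next were picked after their values were seen. KNG1, kininogen, the source of bradykinin that ACE destroys, gave 4045 counts in CMT, 6815 in CM and 4485 in IM, a ratio of 1.33 (1.28 to 1.38) in CM against IM. PTGS2, an inducible cyclooxygenase that takes part in renin release, gave 26, 36 and 46 counts in CMT, CM and IM. ADRB1, the adrenergic receptor that drives renin release, gave 2, 11 and 8. It was below the level needed for comparison, and in CMT under the floor of 3 counts. NR3C2, the mineralocorticoid receptor, gave 89, 106 and 83 counts, and its ratios were 1.12 (0.831 to 1.51) in CM against IM and 1.20 (0.894 to 1.60) in CMT against CM. SGK1, a kinase induced by aldosterone and glucocorticoids, stood at 1.38 (1.32 to 1.44) in CMT against IM. TSC22D3, induced by the same hormones, stood at 1.58 (1.49 to 1.69) in CMT against CM and 0.711 (0.668 to 0.757) in CM against IM.

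**Figure D5:**
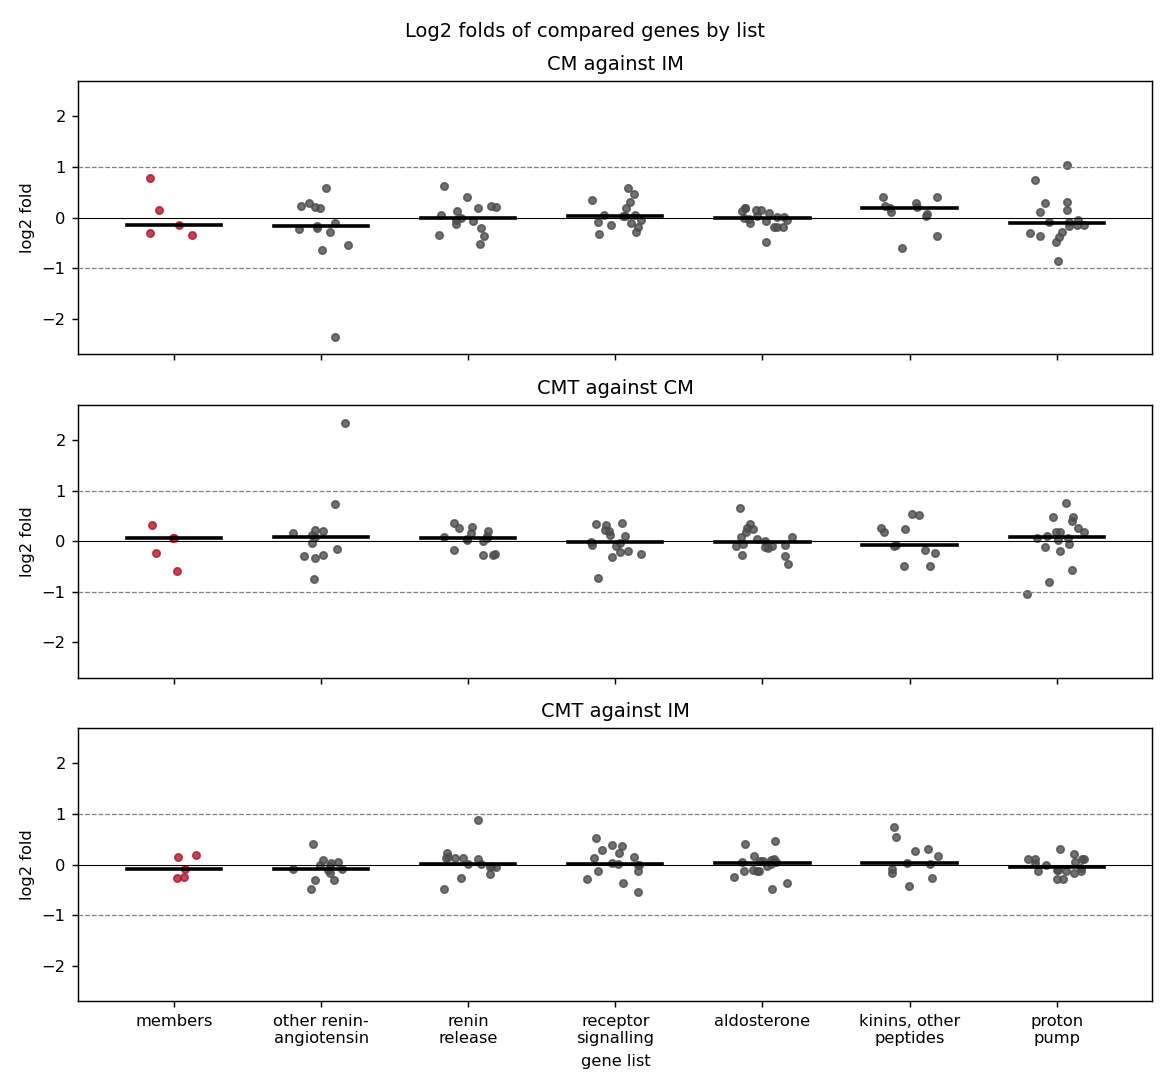
Log2 folds (vertical axis) of the compared genes of the members and 6 related lists in the 3 comparisons, with the list median as a black bar and dashed lines at -1 and 1. DPP3 is the point at -2.37 in CM against IM and 2.34 in CMT against CM, and the medians of the lists lie between -0.17 and 0.19.

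Genes near each compared member in their pattern over the libraries were also sought. Likeness was measured as the Euclidean distance between log2 levels centred over the 3 libraries, among 7626 protein-coding genes with a symbol and at least 10 scaled CPM. Since no member was called, the rule for naming such genes took none, and those given here were added after the values were seen. Nearest to ACE were KLHL21, an adaptor of a ubiquitin ligase, at 0.014, CEBPA, a transcription factor of liver and fat, at 0.019, and ERBB3, a growth factor receptor, at 0.031. In all, 22 genes lay within 0.1 of ACE, against 787 for AGTR1, 356 for MME, 533 for ENPEP and 445 for ATP6AP2. Most genes lie near equal levels, so such a count is small for any gene farther out, as ACE was. These counts are therefore not a separate trait of ACE. With 3 libraries such likeness is a description of these pools.

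Neighbouring genes in the RefSeq table of assembly Sscrofa11.1 did not share the ACE difference as a block. CYB561 stood at a log2 fold of 0.10 in CM against IM and DCAF7 at 0.0099. KCNH6, at 0.68, was near the 0.79 of ACE there, but at -0.12 in CMT against CM, where ACE was at -0.59. The protein-coding neighbour LOC100515049 ran opposite to ACE, at -1.04 in CM against IM and 0.82 in CMT against CM. A long noncoding RNA gene overlaps ACE in that table, and it is not stated whether the counting used strand. The same limit holds for ENPEP, overlapped by a long noncoding RNA gene, and for PRCP, overlapped by DDIAS and RAB30.

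The labelled tissue was checked with its markers. MIOX, a proximal tubule enzyme, gave 51650 counts in CMT, 64905 in CM and 47103 in IM, or 3902, 3434 and 2845 scaled CPM. Podocyte markers, all 10 detected in each library, summed to 523 scaled CPM in CMT, 479.9 in CM and 443 in IM. PODXL gave 1288, 1770 and 1380 counts in that order, or 97.3, 93.6 and 83.3 scaled CPM. Adrenal cortex markers, a possible admixture since the gland adjoins the kidney and carries angiotensin receptors, summed to 15 counts in CMT, 11 in CM and 17 in IM, with CYP17A1 and NR5A1 at 0 in each and STAR at 13, 3 and 12 counts and MC2R at 1, 6 and 3 counts in CMT, CM and IM. The endothelial markers PECAM1 and KDR gave 2481 and 1797 counts in CMT, 3389 and 2526 in CM, and 3402 and 2427 in IM. In scaled CPM PECAM1 stood at 187, 179 and 205 and KDR at 136, 134 and 147 in CMT, CM and IM. The smooth muscle markers ACTA2 and TAGLN gave 2788 and 1393 counts in CMT, 4744 and 1888 in CM, and 4660 and 2170 in IM. Their scaled CPM were 211, 251 and 281 for ACTA2 and 105, 99.9 and 131 for TAGLN in CMT, CM and IM. No proximal tubule, podocyte, endothelial or smooth muscle marker was called in any comparison. Of 14 compared liver markers, 2 (TTR and APOA1) were higher and 4 (ALB, AFP, PLG and TF) lower in CM against IM, beside 2.71%. In CMT against CM 4 (ALB, AFP, TTR and SERPINC1) were higher and 0 lower, beside 2.95%. In CMT against IM 1 (TTR) was higher and 2 (ALB and PLG) lower, beside 1.5%. F2, prothrombin, gave 3228, 4184 and 3923 counts in CMT, CM and IM, or 244, 221 and 237 scaled CPM, and was not called. Of 6 compared leukocyte markers, CD79A of B cells, with 8, 54 and 18 counts in CMT, CM and IM, was the only call. It was lower in CMT against CM, 1 of 6 beside 2.95% of all compared genes. PTPRC, a marker of all leukocytes, gave 174, 339 and 225 counts in CMT, CM and IM.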

How the data were processed

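The authors deposited 1 table of raw counts per gene, with 1 column for each pooled library; per the labels' protocols, RNA was extracted with TRIzol, pooled by group and prepared with an Ion Torrent total RNA kit. The design text names an Illumina instrument and triplicates instead. FastQC is the only tool in the submitters' processing notes; the aligner, counting program, strand setting, genome build and annotation are not given in the sources used here. Numbered identifiers (19902) were looked up in the RefSeq gene table of Sscrofa11.1, and 1556 received a symbol, 11 of them list genes. No sequences were used.

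Library sizes were scaled with TMM (edgeR 4.0.16, R 4.3.3; no edgeR test was run). Ratios carry Clopper-Pearson intervals (SciPy 1.17.1), which like the floor of 3 counts cover counting error only. Log2 folds used a prior count of 2. Scaling alternatives included size factors from DESeq2 1.42.0. The interval code was tested on simulated data. The rule named all 8 members, called genes of each pathway list (up to 4, otherwise 2 in each direction) and of each marker list the 2 most abundant and any called; some genes that the rule took are not reported here. Members and lists were chosen with earlier results of these data known. The comparisons share libraries, so they are not independent of each other.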

Additional observations from a re-analysis of the deposited data

How the results depend on the processing

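The count of called members stayed at 0 in each comparison under the other scalings, with ribosomal and mitochondrial genes left out of the library sizes, without a filter, with a filter of 10 scaled CPM, after thinning and with a 99% interval. With an interval beyond 1.5-fold, 1 member (ACE) was called in CM against IM and 0 in the others. With an interval that excludes 1, 4 were called in each comparison. Over all genes the counts were 420 for CM against IM, 456 for CMT against CM and 232 for CMT against IM. They were 216, 235 and 99 at 10 scaled CPM, where fewer genes are tested, 963, 974 and 579 beyond 1.5-fold, and 6877, 6455 and 5455 where the interval excluded 1. Of 144 log2 folds of members under another scaling, prior count or thinning, 130 lay within the counting interval. The other 14 all came from total-count scaling or from leaving out ribosomal and mitochondrial genes, in comparisons with CMT; ACE in CMT against CM then had a log2 fold of -0.66. Depth limits AGT, AGTR2 and MAS1. No paired analysis was possible because each group is 1 library.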
